A study of Homo sapiens with 12 samples.

Results

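The E2F and DP transcription factors are the DNA-binding proteins through which the retinoblastoma pathway sets entry into S phase. The set described here is the 8 E2F genes, E2F1 to E2F8, and both genes for their DP partners, TFDP1 and TFDP2. They were picked by gene symbol, with earlier results of these data known, and make up 10 of the 32010 genes in the table. All 10 passed the filter on low counts, which kept 19424 genes. They were measured by RNA sequencing of polyadenylated RNA in 12 libraries of HEK293 Flp-In cells, which derive from human embryonic kidney and carry a site for inserting transgenes, in 4 groups of 3. Cells of siNT were transfected with a non-targeting siRNA, while those of siTAF5 got a single siRNA against TAF5, a scaffold subunit of the general transcription factor TFIID. In FL, the TAF5 siRNA was combined with expression of a full-length TAF5 that the siRNA cannot target. In ΔE8, it was combined with expression of TAF5 lacking exon 8. Doxycycline, the inducer of the transgenes, is listed for all 4 groups, added 24 h after transfection for 48 h. The labelled doxycycline dose differs between FL and ΔE8, and no label names the line used for siNT and siTAF5. Whether replicates came from separate cultures is not recorded, and the p-values cover only the spread among these libraries, which may be technical.

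In cycling cells the activators E2F1, E2F2 and E2F3 drive genes of DNA replication and of the G1/S transition. E2F4 and E2F5 mainly repress the same genes in quiescence by recruiting pocket proteins (RB1, RBL1 and RBL2), E2F6 represses through Polycomb complexes without a pocket protein, and the atypical E2F7 and E2F8 bind DNA without a DP partner and shut target genes off late in S phase. E2F1 to E2F6 bind DNA as dimers with TFDP1 or TFDP2, and several E2F genes, E2F1 among them, carry E2F sites in their own promoters. HEK293 cells contain the adenovirus E1A protein, which binds the pocket proteins and frees E2F. All 4 groups are of this line, and neither E1A nor pocket protein activity was measured here.

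The promoters of the 3 activators are shown first, with that of the atypical repressor E2F7 for comparison, because each activator's stretch holds an E2F site word and that of E2F7 holds none. Each line gives the 120 bases before the annotated start in the RefSeq promoter table (GRCh38.p14), 5′ to 3′ on the gene's strand. Capitals mark an E2F site, meaning any of the words TTTCCCGC, TTTCGCGC, TTTGCCGC or TTTGGCGC on either strand. The stretches lie at chr20:33686386-33686505 (minus strand) for E2F1, chr1:23531234-23531353 (minus strand) for E2F2, chr6:20401759-20401878 (plus strand) for E2F3 and chr12:77065570-77065689 (minus strand) for E2F7.
E2F1: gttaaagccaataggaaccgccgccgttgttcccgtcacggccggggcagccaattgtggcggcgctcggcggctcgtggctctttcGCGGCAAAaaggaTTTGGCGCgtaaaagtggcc
E2F2: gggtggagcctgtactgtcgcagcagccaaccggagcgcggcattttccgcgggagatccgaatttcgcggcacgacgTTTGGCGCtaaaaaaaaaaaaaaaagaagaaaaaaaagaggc
E2F3: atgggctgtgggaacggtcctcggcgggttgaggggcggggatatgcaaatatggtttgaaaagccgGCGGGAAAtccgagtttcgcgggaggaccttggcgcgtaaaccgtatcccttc
E2F7: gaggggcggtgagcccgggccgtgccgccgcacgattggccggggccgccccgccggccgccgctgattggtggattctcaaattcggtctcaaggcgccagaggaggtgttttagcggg
The E2F1 stretch holds 2 such words, 1 on each strand and close to the start, and the E2F2 and E2F3 stretches hold 1 each. The E2F7 stretch holds none. In the full windows, from 250 bases before to 50 bases after the start, 4 of the 8 members with a window (E2F1, E2F2, E2F3 and TFDP1) held a word and E2F4, E2F6, E2F7 and TFDP2 did not. A gene counted if any of its windows held a word. E2F3 had a second window, not shown, which held none, and TFDP2 had 3 windows. The words occurred in 3.31% of all 35116 windows, a share counted per window and not per gene. They occurred in any window of 22 of 37 replication and G1/S target genes. The word CCAAT, bound by the factor NF-Y, occurred in 34.6% of all windows. It occurred 3 times in that of E2F1, 4 times each in the first E2F3 window and that of E2F7, and 2 times in the first TFDP2 window. A match describes letters only. E2F5 and E2F8 had no window in the table.

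Library totals ran from 41.8 M to 62.5 M estimated counts. The targeted gene followed the labels. Levels are given in CPM, counts scaled to library size. TAF5 stood at 39.2 to 40.5 CPM in siNT, 6.13 to 7.35 in siTAF5, 103 to 107 in FL and 87.5 to 88.9 in ΔE8. Both add-back groups were thus above the endogenous level, by 2.63-fold in FL and 2.20-fold in ΔE8. These levels were not corrected for the exon that the ΔE8 transgene lacks. Genes that HEK293 cells express (VIM, KRT8, KRT18, PAX2, NEFL, NEFM and INA) were detected in every library, with summed levels of 1833 to 2248 CPM. Of 6 fibroblast markers, COL1A1 and COL3A1 passed the filter, and the list summed to 17.1 to 17.6 CPM in siNT, 10.5 to 11.3 in siTAF5, 8.79 to 10.3 in FL and 8.34 to 8.85 in ΔE8. Of 5 blood cell markers only HBA1 passed, and the list summed to 9.06 to 10.9 CPM in siNT, 5.95 to 7.02 in siTAF5, 9.32 to 10.1 in FL and 6.37 to 7.70 in ΔE8. The defining blood markers PTPRC and CD3E reached at most 0.0528 CPM in any library and the fibroblast markers COL1A2 and DCN at most 0.0352. Of the rest of these lists that did not pass, ITGAM reached 0.209 CPM, HBB 0.0475, LUM 0.302 and PDGFRB 0.212. The liver markers ALB and APOA1 and the kidney glomerulus marker NPHS1 did not pass the filter. UMOD, the kidney tubule marker chosen, was not among the genes counted, so tubule markers were not assessed. The part of these markers in the results was not tested.

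Compared per length, as CPM per kilobase of annotated exon, TFDP1 was the most abundant member in siNT at 94.6 ± 0.213 (SD, n = 3). E2F1 followed at 41.4 ± 0.531, E2F3 at 22.8 ± 0.166 and E2F4 at 20.4 ± 0.506. The next neighbours, E2F2 at 10.9 ± 0.328 and E2F7 at 10.5 ± 0.137, overlapped between libraries. E2F6 stood at 7.75 ± 0.213 and E2F8 at 5.43 ± 0.407, and E2F5 (3.91 ± 0.158) and TFDP2 (3.78 ± 0.0774) at the bottom overlapped. With the length of the longest transcript in place of all exons, E2F4 (27.9) moved above E2F3 (24.8) and E2F7 (11.6) above E2F2 (11.4), so those neighbours have no fixed order. E2F1 was thus the leading E2F transcript in siNT, and the pair of DP genes lay at opposite ends.

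With TAF5 knocked down, 6 of the 10 members fell, 2 rose and 2 did not pass the test (edgeR quasi-likelihood, Benjamini-Hochberg adjusted over all 19424 genes). Of all genes tested, 49.7% passed in either direction in this comparison, 24.7% higher and 25% lower. The siTAF5 and siNT libraries did not overlap for 9 members, as for 57.3% of all genes. The largest falls were those of E2F1 and E2F2, and the rises, of TFDP2 and E2F5, were small. The 12 libraries of each member are plotted by group.

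**Figure D1:**
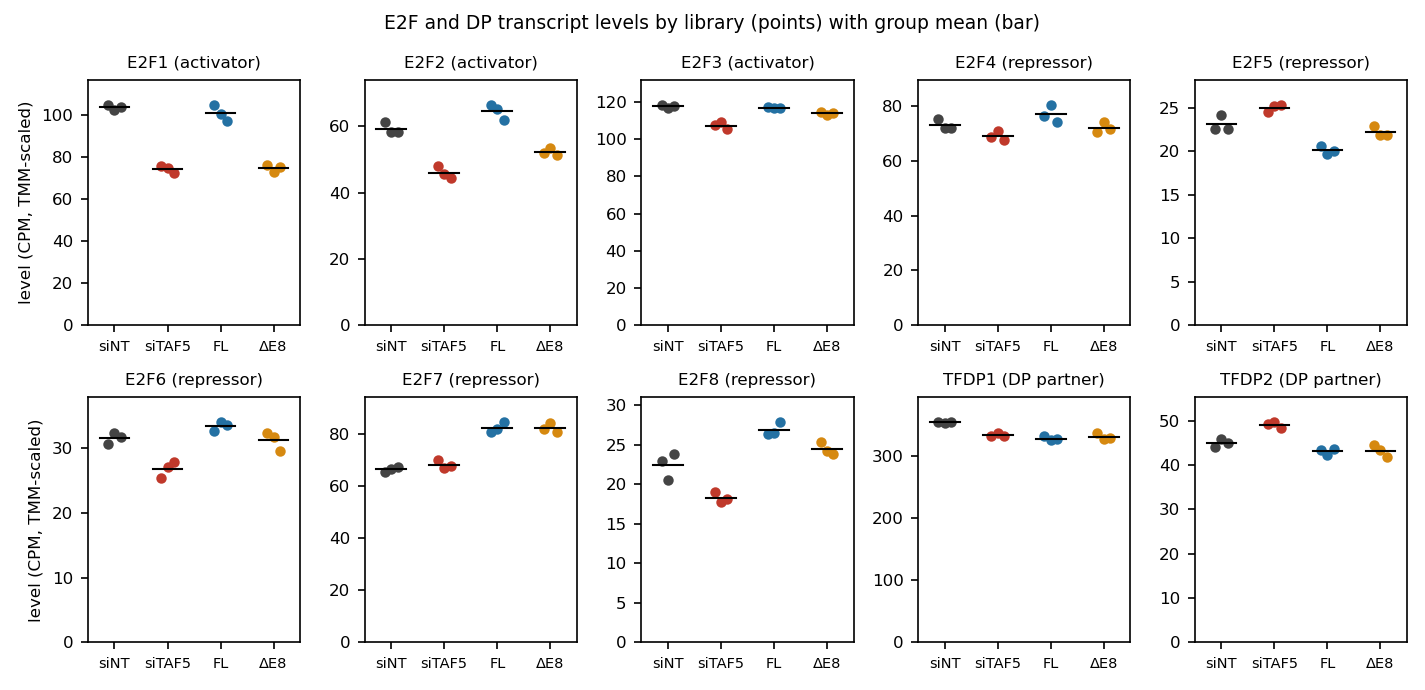
Each panel is one member, with CPM on the vertical axis and one point per library in the groups siNT, siTAF5, FL and ΔE8 (3 each); the bar marks the group mean. E2F1 is at 72.4 to 76.2 CPM in siTAF5 and ΔE8 and at 97.2 to 105 CPM in siNT and FL, while E2F7 is high only in FL and ΔE8.

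E2F1 (ENSG00000101412, chr20:33675477-33686385, minus strand), with position given in hg38 as for all members, encodes the founding activator of the family, which can also induce apoptosis genes. The siNT libraries held it at 105, 102 and 104 CPM and the FL libraries at 105, 100.3 and 97.2. It was at 75.7, 74.6 and 72.4 CPM after knockdown and at 76.2, 72.8 and 75.0 with ΔE8. The siNT and FL libraries were high and overlapped, the siTAF5 and ΔE8 libraries were low and overlapped, and no low library reached a high one. E2F1 fell by 0.48 ± 0.030 (SE) on the log2 scale with TAF5 knockdown, a 1.40-fold change (edgeR adjusted p = 1.05e-10). Full-length TAF5 raised it by 0.44 ± 0.031 over siTAF5 (edgeR adjusted p = 3.64e-10), to a level that was 0.04 below siNT on the log2 scale (95% interval −0.10 to 0.02, adjusted p = 0.282 by edgeR). ΔE8 differed from siTAF5 by 0.01 (95% interval −0.06 to 0.07, adjusted p = 0.848 by edgeR) and was lower than FL by 1.35-fold (edgeR adjusted p = 1.56e-09). With upper-quartile scaling FL against siNT passed (adjusted p = 0.0459). E2F1 was the one member called lower with knockdown and higher with FL but not called for ΔE8 against siTAF5. E2F4 came close to this pattern. Its fall with knockdown missed the threshold (edgeR adjusted p = 0.0558) but passed in 7 of the 14 alternative settings.

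E2F2 (ENSG00000007968, chr1:23506438-23531233, minus strand) is an activator closely related to E2F1. Its level was 61.3, 58.4 and 58.1 CPM in siNT and 47.9, 45.5 and 44.3 in siTAF5, against 66.6, 65.2 and 61.8 in FL and 51.8, 53.5 and 51.4 in ΔE8. All 4 groups were separate, in the order FL, siNT, ΔE8, siTAF5. E2F2 fell 1.29-fold with knockdown (log2 −0.37 ± 0.036, edgeR adjusted p = 5.35e-08) and rose 1.41-fold with full-length TAF5 (log2 0.50 ± 0.036, edgeR adjusted p = 9.36e-10). With ΔE8 it rose 1.14-fold over siTAF5 (edgeR adjusted p = 0.000351) and was 1.24-fold lower than with FL (edgeR adjusted p = 1.40e-06). Against siNT, E2F2 was 0.12 higher in FL and 0.18 lower in ΔE8 on the log2 scale (edgeR adjusted p = 0.00532 and 0.000177).

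E2F3 (ENSG00000112242, chr6:20401879-20493714, plus strand) encodes a pair of isoforms from separate promoters, which gene-level counts do not resolve. Its level was 119, 117 and 118 CPM in siNT and 108, 109 and 105 in siTAF5, against 117, 117 and 117 in FL and 115, 113 and 114 in ΔE8. The siTAF5 libraries were lowest, with ΔE8 just above them and siNT and FL overlapping at the top. The changes were small: E2F3 fell 1.10-fold with knockdown (log2 −0.13 ± 0.023, edgeR adjusted p = 7.66e-05) and rose 1.09-fold with FL (edgeR adjusted p = 0.000197). ΔE8 raised it 1.06-fold over siTAF5 (edgeR adjusted p = 0.00552), a call lost when no filter on low counts was applied (adjusted p = 0.0543). The ΔE8 and FL libraries did not overlap, but their log2 difference of −0.04 (95% interval −0.09 to 0.01) did not pass the test (edgeR adjusted p = 0.245).

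E2F4 (ENSG00000205250, chr16:67192155-67198918, plus strand) is the main pocket protein-bound E2F of quiescent cells. It was at 75.1, 71.9 and 72.0 CPM in siNT and 68.7, 70.9 and 67.7 in siTAF5, against 76.5, 80.5 and 74.1 in FL and 70.6, 74.1 and 71.5 in ΔE8. Its lowest values were in siTAF5 and its highest in FL. The log2 difference of −0.08 between siTAF5 and siNT did not pass (edgeR adjusted p = 0.0558). It passed in 7 of the 14 alternative settings, which were 2 other scalings, both other filters, the replicate block, the 2 groups alone, and without siTAF5 replicate 2 (adjusted p 0.0192 to 0.0492). It rose 1.11-fold from siTAF5 to FL (edgeR adjusted p = 0.000585). Against siNT, FL missed the threshold (log2 0.08, edgeR adjusted p = 0.0522), and passed it without siNT replicate 1 (0.0260) or FL replicate 3 (0.0180). ΔE8 was 0.10 lower than FL on the log2 scale (edgeR adjusted p = 0.0284) with overlapping libraries. That call was lost without FL replicate 1, FL replicate 2, or ΔE8 replicate 1 or 3, with edgeR adjusted p from 0.0519 to 0.240. It was also lost with library totals only, with no filter on low counts and with the 2 groups alone (adjusted p 0.0583 to 0.123 by edgeR).

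E2F5 (ENSG00000133740, chr8:85177154-85217158, plus strand) is also a pocket protein-dependent repressor. With knockdown and with FL it moved opposite to the activators, and opposite to the repressors E2F6 and E2F8 as well. It was at 22.6, 24.2 and 22.6 CPM in siNT and 24.5, 25.2 and 25.4 in siTAF5, against 20.6, 19.7 and 20.0 in FL and 22.9, 21.9 and 21.9 in ΔE8. The siTAF5 libraries were highest and the FL libraries lowest. E2F5 rose by 0.11 ± 0.041 on the log2 scale with knockdown (edgeR adjusted p = 0.0249). This call was lost without siNT replicate 1 or 3 and without any one siTAF5 replicate (adjusted p 0.0507 to 0.130 by edgeR). No filter on low counts (adjusted p = 0.0930 by edgeR) and DESeq2 (adjusted p = 0.0834) lost it too. E2F5 fell 1.24-fold with FL (edgeR adjusted p = 3.56e-06) and 1.13-fold with ΔE8 (edgeR adjusted p = 0.00244), and ΔE8 stood 0.14 above FL (edgeR adjusted p = 0.0126). E2F5 overlaps RBIS on the opposite strand. The library kit was stranded, but whether counting used strand is unrecorded (not given in the sources used here). It is thus not known whether reads of both genes were kept apart. RBIS fell with knockdown (log2 −0.17, edgeR adjusted p = 0.00268), opposite in sign to E2F5.

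E2F6 (ENSG00000169016, chr2:11444375-11466177, minus strand) is the Polycomb-associated repressor. It was at 30.6, 32.3 and 31.7 CPM in siNT and 25.4, 27.1 and 27.9 in siTAF5, against 32.6, 34.1 and 33.6 in FL and 32.3, 31.7 and 29.6 in ΔE8. The siTAF5 libraries were low and the other 3 groups lay between 29.6 and 34.1. E2F6 fell with knockdown (log2 −0.23 ± 0.043, edgeR adjusted p = 0.000121) and rose 1.24-fold with FL (edgeR adjusted p = 4.20e-06) and 1.17-fold with ΔE8 (edgeR adjusted p = 0.000335). ΔE8 and FL differed by −0.09 on the log2 scale (95% interval −0.18 to −0.0041, adjusted p = 0.0950 by edgeR). The pseudogene E2F6P1 had at most 17 counts in any library.

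E2F7 and E2F8 are the atypical repressors. E2F7 was higher with either TAF5 transgene than in siNT. E2F8 was also called higher with either, but its call in ΔE8 was lost in 7 of the 14 alternative settings. E2F7 (ENSG00000165891, chr12:77021248-77065569, minus strand) was at 65.6, 66.5 and 67.3 CPM in siNT and 69.9, 66.9 and 67.7 in siTAF5, against 80.7, 81.9 and 84.8 in FL and 82.0, 84.4 and 80.8 in ΔE8. Knockdown left it without a detectable change (log2 0.03, 95% interval −0.03 to 0.10, edgeR adjusted p = 0.343). FL raised it 1.21-fold over siTAF5 (log2 0.27 ± 0.029, edgeR adjusted p = 1.46e-07) and ΔE8 1.21-fold (edgeR adjusted p = 3.57e-07), 2 comparisons that share the siTAF5 libraries. ΔE8 and FL differed by 0.00 on the log2 scale (95% interval −0.06 to 0.06, edgeR adjusted p = 0.981). E2F7 stood above siNT in both, by 0.31 on the log2 scale in each (edgeR adjusted p = 2.28e-08 in FL and 9.80e-09 in ΔE8), where the transgene itself, a TAF5 level above the endogenous one and any difference of line or doxycycline dose cannot be told apart.

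E2F8 (ENSG00000129173, chr11:19224063-19241620, minus strand) was at 23.0, 20.6 and 23.8 CPM in siNT and 19.0, 17.8 and 18.2 in siTAF5, against 26.3, 26.4 and 27.9 in FL and 25.4, 24.2 and 23.9 in ΔE8. It fell 1.23-fold with knockdown (log2 −0.30 ± 0.052, edgeR adjusted p = 7.84e-05). It rose 1.47-fold with FL (edgeR adjusted p = 2.65e-08), the largest rise of any member, and 1.34-fold with ΔE8 (edgeR adjusted p = 2.29e-06). In FL it exceeded siNT by 0.26 on the log2 scale (edgeR adjusted p = 0.000183). The 1.10-fold lower level in ΔE8 than in FL (edgeR adjusted p = 0.0457) was lost without any one FL replicate or without ΔE8 replicate 2 or 3 (adjusted p 0.0587 to 0.154 by edgeR). With 2 other scalings and both other filters it was lost as well (adjusted p 0.0526 to 0.101 by edgeR), and with DESeq2 (adjusted p = 0.0835). The excess of E2F8 over siNT in ΔE8 (log2 0.13, edgeR adjusted p = 0.0329) was lost without siNT replicate 2 or ΔE8 replicate 1 or 2 (adjusted p 0.0593 to 0.252 by edgeR). Upper-quartile scaling, no filter on low counts and the 2 groups alone also lost it (adjusted p 0.0549 to 0.140 by edgeR), as did DESeq2 (adjusted p = 0.0751).

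TFDP1 (ENSG00000198176, chr13:113584721-113641473, plus strand) encodes the more abundant dimer partner. It was at 354, 353 and 354 CPM in siNT and 331, 336 and 332 in siTAF5, against 331, 325 and 326 in FL and 336, 326 and 329 in ΔE8. It was slightly higher in siNT than in every other library. It fell 1.06-fold with knockdown (log2 −0.09 ± 0.021, edgeR adjusted p = 0.00158), and neither add-back changed it by a detectable amount (edgeR adjusted p = 0.364 for FL and 0.698 for ΔE8), except that FL passed with library totals only (0.00445). TFDP2 (ENSG00000114126, chr3:141944428-142149544, minus strand) encodes the less abundant partner. It was at 44.1, 45.9 and 44.9 CPM in siNT and 49.2, 49.8 and 48.4 in siTAF5, against 43.5, 42.2 and 43.7 in FL and 44.4, 43.3 and 41.9 in ΔE8. The siTAF5 libraries were the highest and the other 3 groups lay between 41.9 and 45.9. TFDP2 rose 1.09-fold with knockdown (log2 0.13 ± 0.032, edgeR adjusted p = 0.00241), and fell 1.14-fold with FL (edgeR adjusted p = 7.06e-05) and 1.13-fold with ΔE8 (edgeR adjusted p = 0.000134).

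Across the add-back comparisons, 7 members rose and 2 fell from siTAF5 to FL, where 48.8% of all genes passed (24.4% higher, 24.4% lower), and libraries were separate for 9 members and for 56.3% of genes. With library totals as the only scaling, the split over all genes was 3748 higher and 5788 lower. From siTAF5 to ΔE8, 5 members rose and 2 fell, where 40.6% of genes passed (20% higher, 20.6% lower), and 7 members and 49.9% of genes were separate. Between ΔE8 and FL, 1 member was higher (E2F5) and 4 were lower (E2F1, E2F2, E2F4 and E2F8), where 37% of genes passed (17.3% higher, 19.7% lower), and 6 members and 45.7% of genes were separate. The 5 calls became 3 without FL replicate 1, FL replicate 2 or ΔE8 replicate 3. Against siNT, FL had 3 members higher and 2 lower, where 54.6% of genes passed (27.8% higher, 26.8% lower), and 7 members and 59.7% of genes were separate. Against siNT, ΔE8 had 2 members higher and 3 lower, where 62.2% of genes passed (30.8% higher, 31.4% lower), and 6 members and 65.7% of genes were separate. In both comparisons with siNT the members were called no more often than other genes.

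**Figure D2:**
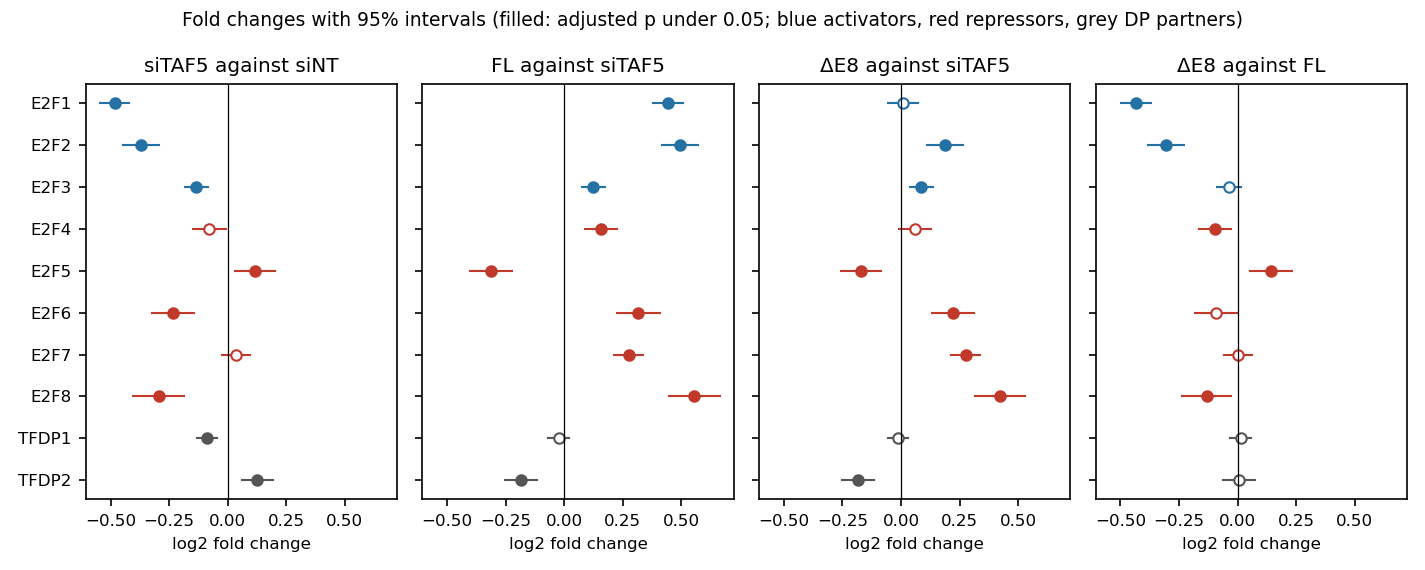
Log2 fold changes of the 10 members for siTAF5 against siNT, FL against siTAF5, ΔE8 against siTAF5 and ΔE8 against FL, with 95% intervals from edgeR. Filled points passed the adjusted p threshold of 0.05. FL and ΔE8 against siNT are not drawn. E2F1 and E2F2 lie at −0.48 and −0.37 for siTAF5 against siNT and at −0.43 and −0.31 for ΔE8 against FL, while E2F7 lies at 0.00 for ΔE8 against FL.

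The balance of activators and repressors was described by the share of E2F1, E2F2 and E2F3 in the summed level of the 8 E2F genes, in CPM per kilobase of exon. It was 61.2%, 60.9% and 60.9% in siNT and 57.0%, 56.5% and 56.0% in siTAF5, against 59.6%, 58.2% and 58.1% in FL and 55.1%, 54.2% and 55.4% in ΔE8. The groups did not overlap, in the order siNT, FL, siTAF5, ΔE8, and the same order held with the longest transcript, with CPM and without E2F6. The summed activators were 75.1, 58.9, 74.7 and 61.5 CPM per kilobase in siNT, siTAF5, FL and ΔE8, and the summed repressors were 48.0, 45.3, 52.7 and 50.5. E2F1 alone stood at 41.4, 29.6, 40.3 and 29.8 in the same order, the largest part of the activator sum. No setting left E2F1 out, so whether the groups separate by share without it was not tested. With knockdown all 3 activators fell, and of the 5 repressors E2F6 and E2F8 fell, by 0.23 and 0.30 on the log2 scale, more than the activator E2F3 at 0.13. E2F5 was called higher and E2F4 not called, and each of these outcomes changed in 7 of the 14 alternative settings. With ΔE8 over siTAF5, the activators E2F2 and E2F3 and the repressors E2F6, E2F7 and E2F8 rose, E2F5 fell, and E2F1 and E2F4 were not called. The members of a class thus did not move alike, and the difference between the classes was not tested. No p is given for the share, since it is a score over chosen members.

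**Figure D3:**
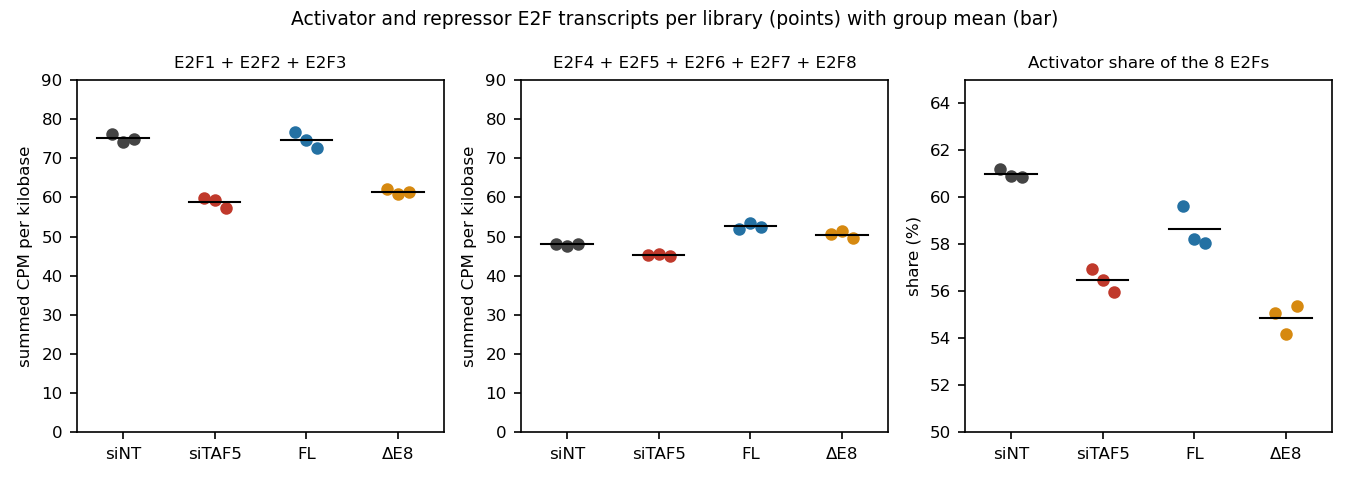
Share of the summed E2F transcript level held by E2F1, E2F2 and E2F3, in percent on an axis from 50 to 65, and the summed activator and repressor levels in CPM per kilobase, with one point per library. The share is 60.9 to 61.2% in siNT and 54.2 to 55.4% in ΔE8, with siTAF5 and FL between them.

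The replication and G1/S genes that E2Fs are known to drive (42 genes of a list chosen by symbol) had no common direction with knockdown, where 12 rose and 14 fell (median log2 change −0.01, against 0.00 over all genes). With FL 34 rose and 3 fell over siTAF5 (median 0.20, against −0.01), and with ΔE8 30 rose and 2 fell (median 0.14, against −0.01), while E2F1 passed with FL and not with ΔE8. Both add-back groups also exceeded siNT, with 33 higher and 5 lower in FL and 29 higher and 8 lower in ΔE8. Between ΔE8 and FL 10 were higher and 16 lower (median −0.05). The shares of all genes called higher and lower were 24.7% and 25% with knockdown. They were 24.4% and 24.4% for FL over siTAF5, and 20% and 20.6% for ΔE8 over siTAF5. Against siNT they were 27.8% and 26.8% for FL and 30.8% and 31.4% for ΔE8, and for ΔE8 against FL 17.3% and 19.7%. Knockdown against siNT and ΔE8 against FL share no library, and 10 of the 12 genes that rose in the first were among the 10 that were higher in the second, and 11 of the 14 that fell were among the 16 lower. Over all genes tested, 53.2% of the genes higher and 59.6% of those lower with knockdown passed in the same direction in ΔE8 against FL. Counted from ΔE8 against FL instead, 76% of all genes higher and 75.6% of those lower passed in the same direction with knockdown. For the target list these shares were 100% and 68.8%, so the lower targets were shared less often than other genes by that count.

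**Figure D4:**
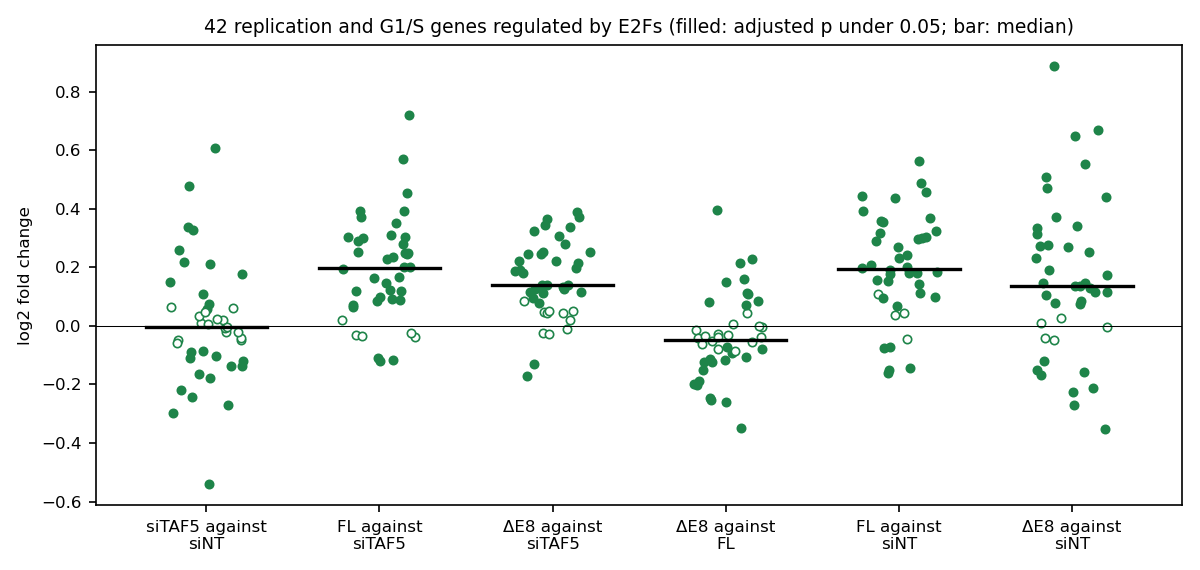
Log2 fold changes of the 42 replication and G1/S target genes in each comparison, with one point per gene and the median as a bar. Filled points passed the threshold (edgeR adjusted p under 0.05). Of the 42 genes, 12 passed as higher and 14 as lower with TAF5 knockdown, and 34 as higher and 3 as lower in FL against siTAF5.

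The changes given for list genes passed the same edgeR test unless stated. RRM2, the small subunit of ribonucleotide reductase, was higher in siTAF5 than in siNT and in ΔE8 than in FL, where E2F1 was lower, at 213 ± 3.56 CPM in siNT, 325 ± 1.06 in siTAF5, 299 ± 10.4 in FL and 394 ± 7.71 in ΔE8 (SD, n = 3). Its log2 change with knockdown was 0.61 ± 0.026 (SE, edgeR adjusted p = 4.98e-13). TK1, thymidine kinase of S phase cells, was lower in both of those comparisons, at 85.0 ± 1.92, 58.5 ± 0.628, 96.3 ± 1.58 and 75.7 ± 1.84 CPM in the same order, and fell by 0.54 ± 0.028 on the log2 scale with knockdown (edgeR adjusted p = 8.09e-12). UHRF1, which maintains DNA methylation at replication, was 1.19-fold lower in ΔE8 than in FL, and POLA2, of DNA polymerase alpha, rose 1.39-fold with knockdown. In the MuvB group, MYBL2, which drives late cell cycle genes, fell 1.25-fold with knockdown and was 1.21-fold lower in ΔE8 than in FL, and LIN9 rose 1.24-fold and was 1.20-fold higher in ΔE8. That list had 1 gene higher and 4 lower of 8 with knockdown, and 6 higher and 0 lower with FL. Over all genes tested, 24.7% were higher and 25% lower with knockdown, and 24.4% higher and 24.4% lower with FL.

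Of the pocket proteins, RB1 rose with knockdown, from 119 ± 2.72 CPM in siNT to 150 ± 3.89 in siTAF5, and stood at 155 ± 4.52 in FL and 174 ± 7.18 in ΔE8 (log2 change with knockdown 0.33 ± 0.032 SE, edgeR adjusted p = 3.67e-08). RBL1 rose 1.12-fold and RBL2 was at a log2 difference of −0.05, which did not pass. RB1 was 1.12-fold higher in ΔE8 than in FL. CDKN1A (p21), the p53-induced inhibitor of cyclin-dependent kinases, was high in the groups where E2F1 was low, at 92.9 ± 3.10 CPM in siNT, 136 ± 3.25 in siTAF5, 93.0 ± 2.21 in FL and 123 ± 2.85 in ΔE8 (log2 change with knockdown 0.55 ± 0.030 SE, edgeR adjusted p = 1.52e-11). Of the 7 CDK inhibitors, 2 rose and 2 fell with knockdown, and of 10 G1 cyclins and CDKs 4 rose and 5 fell, with CCNA2 1.13-fold lower and CDK2 1.15-fold higher. CKS1B, the cofactor of the SKP2 ubiquitin ligase, fell 1.54-fold with knockdown and was 1.27-fold lower in ΔE8 than in FL. PMAIP1 (NOXA), an apoptosis gene that E2F1 can induce, fell 1.59-fold and was 1.33-fold lower in ΔE8, from 378 ± 13.6 CPM in siNT to 237 ± 9.52 in siTAF5. Of 12 genes of the E2F6 Polycomb complex PRC1.6, 5 rose and 1 fell with knockdown, and L3MBTL2 rose 1.19-fold. Of 6 genes of E2F turnover by SCF and APC/C 3 rose and 2 fell, and of 8 apoptosis targets 1 rose and 3 fell. Beside these list counts, 49.7% of all genes tested passed with knockdown, 24.7% higher and 25% lower. The median log2 changes with knockdown, against 0.00 over all genes, were 0.16 for the pocket proteins, −0.02 for the G1 cyclins and CDKs, 0.05 for the CDK inhibitors, −0.09 for the MuvB group, 0.07 for PRC1.6, 0.06 for the turnover genes and 0.00 for the apoptosis targets. Of 6 germline genes that E2F6 is known to silence, 2 passed the filter on low counts, STAG3 among them (log2 −0.17, edgeR adjusted p = 0.369), and neither was called, with 0 at an unadjusted p under 0.05.

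The genes whose log2 CPM followed each member most closely over the 12 libraries were found among the 12314 genes whose mean log2 CPM reached 2, as a description with no test. The closest to E2F1 were YARS1 (Pearson r = 0.994), MTHFD1L (0.993) and RPS9 (0.991), and to E2F2 YBX1 (0.987), ARHGEF16 (0.987) and ABCF1 (0.986). The closest to E2F7 were PSMD11 (0.993), NVL (0.989) and PSMC2 (0.988), and to E2F8 EXO1 (0.974). SOX6 was closest to E2F5 (0.972), DEPDC1 to E2F6 (0.966), TMEM145 to E2F4 (0.940), SYT11 to E2F3 (0.956), GLO1 to TFDP1 (0.966) and GK to TFDP2 (0.968). Among members, E2F1 and E2F2 had r = 0.883, E2F1 and E2F7 r = −0.108, and E2F5 and E2F8 r = −0.934. The 12 points share 4 treatments and 1 scaling.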

How the data were processed

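Estimated counts per gene were deposited by the authors for the 12 libraries, made from a stranded mRNA kit per the labels' protocols. Per the submitters' processing notes, the build was hg38 and the tools included STAR 2.7.0f and Partek 10.0.23.0531, with cutadapt 1.18 and DESeq2. Quantifier, annotation release and the strand setting of the counting remain unrecorded (not given in the sources used here). Of the values 45.3% were not whole (rounding changed a library total by at most 91.27), and they were rounded. edgeR 4.0.16 (R 4.3.3) was fitted to all 12 libraries with a mean per group, TMM scaling and filterByExpr with a minimum count of 10, and p-values were adjusted over 19424 genes (threshold 0.05). No spike-in was used in the fit, so each change is measured against most other genes. The biological coefficient of variation was 2.82%. Members and lists were chosen with earlier results of these data known. Named genes were all members, TAF5, the pocket proteins, the 3 smallest adjusted p per list in siTAF5 against siNT and ΔE8 against FL, and the 3 genes most like each member. Exon lengths came from GENCODE and the simulated-data test ran before the fit. Same-numbered libraries of different groups correlated at −0.051 to 0.051 after group means were removed, and the numbers were not used to pair samples. The labels do not say whether a number marks a shared culture or day, and these correlations cannot decide it. Alternatives were 3 other scalings, 2 filters, DESeq2 1.42.0, a replicate block, the 2 compared groups alone and each replicate left out. A further blood cell marker is not reported here.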

Additional observations from a re-analysis of the deposited data

Results flagged for a closer look

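For 5 members the effect of the ΔE8 add-back differed from that of the full-length add-back, each against siTAF5, as tested by the ΔE8 to FL contrast in edgeR (adjusted p under 0.05). The log2 differences, ΔE8 minus FL, were −0.43 for E2F1, −0.31 for E2F2, −0.10 for E2F4, 0.14 for E2F5 and −0.13 for E2F8. The E2F4 call was lost in 7 and the E2F8 call in 10 of the 14 alternative settings, single libraries left out among them, as given with their levels. The labelled doxycycline dose and the TAF5 level (1.20-fold lower in ΔE8, not corrected for the missing exon) moved with this contrast. Their part in it was not tested.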

How the results depend on the processing

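Over 14 alternative settings, 34 of the 39 member calls were kept in every one, and no called value changed sign. Of the 21 member results not called, 8 were called in at least 1 setting: E2F4 in siTAF5 against siNT, TFDP1 in FL against siTAF5, E2F1, E2F4 and TFDP2 in FL against siNT, and E2F3, E2F5 and TFDP2 in ΔE8 against siNT. The 5 that were lost in at least 1 setting are E2F5 in siTAF5 against siNT, E2F3 in ΔE8 against siTAF5, E2F4 and E2F8 in ΔE8 against FL and E2F8 in ΔE8 against siNT. Members called in ΔE8 against FL numbered 5, and 3 with library totals only, with no filter on low counts and without single replicates (3 to 4 over the left-out replicates). The cause was not tested.

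The activator share in siNT, siTAF5, FL and ΔE8 was 56.6%, 52.1%, 54.3% and 50.6% with the longest transcript, 56.4%, 52.3%, 54.0% and 50.9% with CPM, and 65.1%, 60.3%, 62.7% and 58.9% without E2F6. Differences near 0 that were not called changed sign in some settings. E2F1 in ΔE8 against siTAF5 was −0.0169 with upper-quartile scaling, −0.0119 with library totals, −0.000104 with no filter and −0.00116 to 0.0369 over the left-out replicates. E2F7 in ΔE8 against FL was −0.00806 with upper-quartile scaling and −0.0161 to 0.0200 over the left-out replicates. TFDP2 there was −0.00505 and −0.00794 to 0.0297 in the same settings. RBL2 there was 0.0172 with library totals, 0.00154 with a minimum count of 50 and −0.0234 to 0.0115 over the left-out replicates. In ΔE8 against siNT, E2F6 was 0.00123 with library totals and −0.0407 to 0.0145 over the left-out replicates, and E2F4 was −0.0442 to 0.00109. TFDP1 in ΔE8 against siTAF5 was −0.0135 to 0.00712 over the left-out replicates.

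With the replicate number as a block, 9787, 9602, 8092, 7409, 10687 and 12215 genes were called in siTAF5 against siNT, FL against siTAF5, ΔE8 against siTAF5, ΔE8 against FL, FL against siNT and ΔE8 against siNT. The block added E2F4 in siTAF5 against siNT (adjusted p = 0.0358, edgeR) and in FL against siNT (0.0350, edgeR). Of the 12 libraries 6 correlated best with their own number.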
